A study of Danio rerio with 6 samples.

Results

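Heme synthesis enzymes were followed in zebrafish larvae homozygous for a knockout of hspd1, the gene of the mitochondrial chaperone HSP60. The members were chosen by symbol from the gene table, ignoring case, and those described are alas1, alas2, alad, uros, urod, cpox, ppox and fech. They are 8 of the 25859 genes in the count files, and all 8 were tested. The tested animals were hspd1-/- larvae and the controls were hspd1+/+ larvae, both from in-crosses of heterozygous carriers of an hspd1 knockout line and both taken at 5 dpf (days post fertilization). The labels name no allele. Each of the 6 libraries came from 1 pool of 5 larval bodies whose tail tips had been removed for genotyping, with 3 pools for each genotype, and pooling was carried out for 3 mating sets. Symbols are written here in lower case, as is usual for zebrafish genes.

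Heme is an iron-porphyrin that carries oxygen in hemoglobin and electrons in cytochromes. It is built from glycine and succinyl-CoA in a chain of enzymatic steps: the first and the last 3 take place in mitochondria, and the steps between them in the cytosol. In vertebrates the first step is carried out by a pair of isoenzymes, alas1 in most tissues, with liver as a main site and with feedback by heme, and alas2 in red blood cell precursors. Several zebrafish anemia or porphyria mutants carry lesions in these genes, among them sauternes (alas2) and montalcino (ppox).

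Total counts ran from 18517874 to 19131375 in the knockout pools and from 18853982 to 20331675 in the control pools. Levels are given as CPM, counts scaled to library size with TMM factors. They were not divided by transcript length, so levels of different genes are not compared with each other. The labelled material, given as embryo, held organ markers of a whole larva in every pool, among them myhz2 of skeletal muscle, krt4 of skin, elavl3 of neurons and hbae1.1 of red blood cells. The targeted gene was lower in the knockout pools: hspd1 (ENSDARG00000056160) stood at 74.5 ± 7.29 CPM there, against 129 ± 5.02 CPM in the control pools (SD, n = 3 each). HSP60 protein, enzyme activity and heme itself were not measured. Of 21602 genes tested, 4.01% passed the threshold, an adjusted p of 0.05 in edgeR's quasi-likelihood test with Benjamini-Hochberg adjustment over all genes. All fold changes are knockout over control.

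Transcripts of heme synthesis enzymes were lower in hspd1-/- larvae. Of the 8 genes 4 fell (alas1, urod, cpox and ppox), where 2.54% of all genes tested fell. None rose: edgeR called 0 of 8 higher, where it called 1.47% of all genes higher. DESeq2 and limma-voom also gave 0 higher, against 1.76% and 1.37% of all genes. At an unadjusted p under 0.05 (edgeR), all 8 were lower, where 8.81% of all genes were, and 0 were higher, where 6.79% were. The median log2 fold change was -0.90 over the 8 genes, beside -0.01 over all genes tested. In all 8 genes every knockout pool lay below every control pool, as did 10.6% of all genes tested. The count depended on knockout pool 1: without it, 7 of the 8 genes fell, all but uros, where 487 of 21786 genes tested fell. Pool 1 was the highest knockout pool in 7 of the 8 genes, so leaving it out lowered their knockout means. The number of genes called lower was also 4 of the 8 with DESeq2 and with limma-voom, which called 3.11% and 2.40% of all genes lower. These genes and the lists below were chosen with earlier results of these data known. The shares of all genes thus stand beside their counts as a description only.

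**Figure D1:**
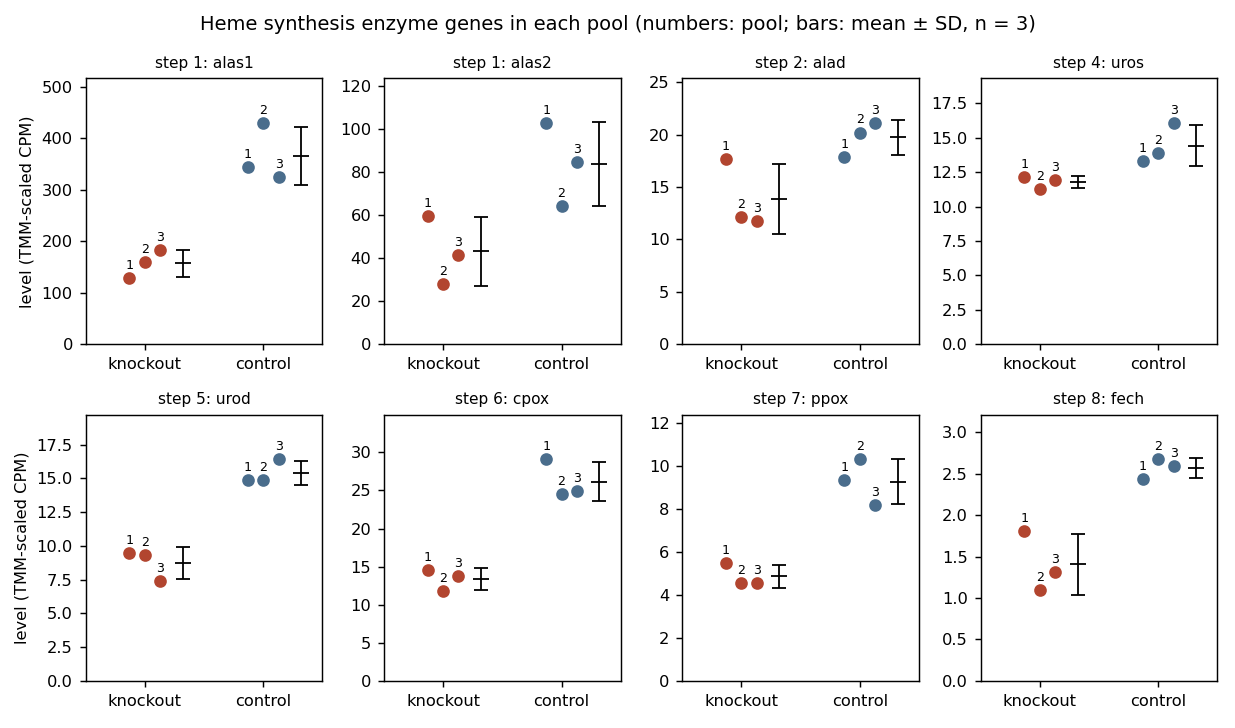
Level of each of the 8 enzyme genes in TMM-scaled CPM (vertical axes, from 0, each with its own scale) in the 3 hspd1 knockout pools (left) and the 3 control pools (right), with pool numbers beside the points and mean ± SD as bars. In each gene the 3 knockout pools lie below the 3 control pools, and knockout pool 1 is the highest knockout pool in 7 of 8 genes.

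The first enzyme, 5-aminolevulinate synthase, sets the rate of the pathway. Its housekeeping gene alas1 (ENSDARG00000021059) had 128, 159 and 182 CPM in knockout pools 1, 2 and 3, against 344, 429.7 and 324 CPM in control pools 1, 2 and 3. All knockout pools were thus well below the lowest control pool, pool 3. The log2 fold change was -1.22 (SE 0.15, 95% interval -1.57 to -0.88, edgeR adjusted p = 0.00102), a level 2.34-fold lower. The gene was covered by 2474 to 7874 reads per pool, so counting error was small beside the spread between pools. The coefficient of variation was 17.3% in the knockout and 15.4% in the control pools, and counting alone would give 1.202% in the controls.

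The erythroid isoenzyme gene alas2 (ENSDARG00000038643) varied more. It had 59.8, 27.8 and 41.7 CPM in knockout pools 1, 2 and 3, against 103, 64.0 and 84.7 CPM in control pools 1, 2 and 3. The groups did not overlap, but knockout pool 1 and control pool 2 lay close to each other. With a log2 fold change of -0.96 (SE 0.25, 95% interval -1.51 to -0.41), alas2 stayed above the threshold (edgeR adjusted p = 0.0644). Of the 6 fits that leave out 1 pool, it passed in those without knockout pool 1 (adjusted p = 0.011) and without control pool 2 (adjusted p = 0.0436). It also passed in edgeR with a block on replicate number (adjusted p = 0.00258), though whether same-numbered pools share a mating set is not stated. Its coefficient of variation was 37.2% in the knockout pools, the widest among the 8 genes, and 23.2% in the controls. The ratio of alas1 to alas2 CPM was 2.15, 5.72 and 4.38 in knockout pools 1, 2 and 3, against 3.34, 6.71 and 3.82 in control pools 1, 2 and 3. That ratio overlapped between genotypes, and no p is given for it, since an exact test of 3 against 3 pools cannot go below 0.1.

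Of the cytosolic enzyme genes described, urod passed the test and alad and uros did not. alad (ENSDARG00000100372), whose product joins a pair of aminolevulinate molecules into porphobilinogen, had 17.7, 12.1 and 11.8 CPM in knockout pools 1, 2 and 3, against 17.9, 20.2 and 21.1 CPM in control pools 1, 2 and 3. Knockout pools 2 and 3 were low, while knockout pool 1 stood just below control pool 1. The log2 fold change of -0.51 (SE 0.16) was above the threshold (edgeR adjusted p = 0.13), and it passed without knockout pool 1 (-0.72, adjusted p = 0.0104).

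Later cytosolic enzymes close and trim the porphyrin ring. uros (ENSDARG00000027491), which makes uroporphyrinogen III, had 12.1, 11.3 and 11.9 CPM in knockout pools 1, 2 and 3, against 13.3, 13.9 and 16.1 CPM in control pools 1, 2 and 3. The knockout pools were close together and all below the controls, yet the log2 fold change of -0.29 (SE 0.12, 95% interval -0.56 to -0.03) did not pass (edgeR adjusted p = 0.261). urod (ENSDARG00000006818), the decarboxylase that makes coproporphyrinogen, had 9.49, 9.35 and 7.41 CPM in knockout pools 1, 2 and 3, against 14.9, 14.9 and 16.4 CPM in control pools 1, 2 and 3. It fell by 0.82 on the log2 scale (SE 0.13, edgeR adjusted p = 0.00514), a level 1.76-fold lower.

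At the mitochondrial end of the pathway cpox and ppox fell. cpox (ENSDARG00000062025), the oxidase that makes protoporphyrinogen IX, had 14.6, 11.8 and 13.8 CPM in knockout pools 1, 2 and 3, against 29.1, 24.5 and 24.9 CPM in control pools 1, 2 and 3. Its log2 fold change was -0.96 (SE 0.12, 95% interval -1.23 to -0.70, edgeR adjusted p = 0.000998), a level 1.95-fold lower. By p-value cpox ranked 203 and alas1 ranked 205 among the 21602 genes tested.

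ppox (ENSDARG00000102167), which oxidizes protoporphyrinogen to protoporphyrin, had 5.50, 4.55 and 4.57 CPM in knockout pools 1, 2 and 3, against 9.34, 10.3 and 8.21 CPM in control pools 1, 2 and 3. It fell by 0.93 on the log2 scale (SE 0.15, edgeR adjusted p = 0.0049). fech (ENSDARG00000003462), ferrochelatase, inserts the iron and in vertebrates carries an iron-sulfur cluster. It had 1.81, 1.097 and 1.31 CPM in knockout pools 1, 2 and 3, against 2.44, 2.67 and 2.59 CPM in control pools 1, 2 and 3. Knockout pools lay below controls, with a log2 fold change of -0.86 (SE 0.23, 95% interval -1.37 to -0.35) that did not pass (edgeR adjusted p = 0.074), except without knockout pool 1 (adjusted p = 0.0375). The gene rested on only 21 to 49 reads per pool, the fewest of the 8. In the controls counting alone would give a coefficient of variation of 14.3%, and the observed 4.72% lay below that. The closeness of the control pools thus does not show a small spread. In the knockout pools the observed coefficient was 26.1%, against 19.25% from counting.

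**Figure D2:**
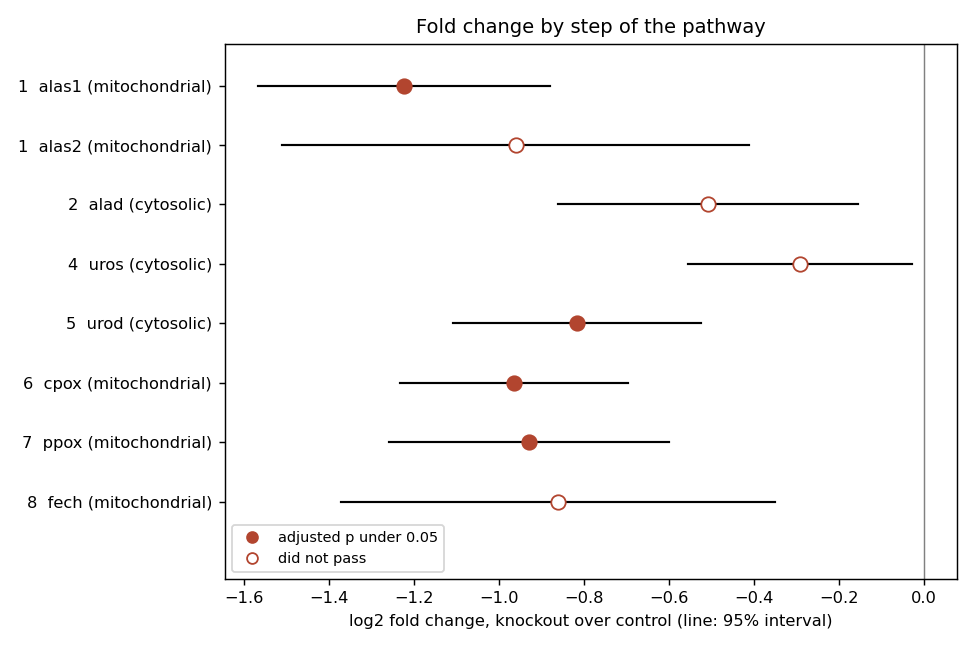
Log2 fold change (knockout over control, horizontal axis) of the 8 enzyme genes in the order of the pathway's steps, with 95% intervals as lines, filled points for an edgeR adjusted p under 0.05 and open points for genes that did not pass. All 8 estimates are below 0, from -1.22 for alas1 to -0.29 for uros.

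By compartment, 3 of 5 genes of the mitochondrial steps fell (median log2 fold change -0.96), and 1 of 3 genes of the cytosolic steps described (median -0.51). Of all genes tested, 2.54% fell. At an unadjusted p under 0.05 (edgeR), 5 of 5 and 3 of 3 were lower, where 8.81% of all genes were. The difference between compartments was not tested, since the genes are not replicates.

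The knockout pools were not alike across the pathway. Pool 1 was the highest knockout pool in 7 of the 8 genes, and alas1 was the exception, with pool 1 the lowest. In urod (183 reads in pool 1, 179 in pool 2) and uros (234 in pool 1, 227 in pool 3) the order was nearly a tie. Pool 1 was also the highest knockout pool for the organ markers myhz2, myl7 and krt4, but not for elavl3, cryaa and ins. The share of all genes with knockout pool 1 highest was not counted. On average the 6 genes other than alas1 and alas2 stood at -0.52, -0.84 and -0.81 in knockout pools 1, 2 and 3, as mean log2 CPM from the control mean, against -0.03, 0.01 and 0.02 in control pools 1, 2 and 3. The corresponding values of alas1 were -1.50, -1.19 and -0.99 in the knockout pools and -0.08, 0.24 and -0.17 in the control pools.

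Markers of the cell types that make most heme also differed between genotypes, and so did a marker of another tissue. The lens crystallin gene cryaa (ENSDARG00000053502) had 18.3, 27.0 and 17.6 CPM in knockout pools 1, 2 and 3, against 45.2, 50.2 and 27.8 CPM in control pools 1, 2 and 3 (log2 fold change -0.97, edgeR adjusted p = 0.0355). Markers of skeletal muscle, heart, skin, neurons and pancreatic islet (myhz2, myl7, krt4, elavl3 and ins) did not pass, with log2 differences from -0.30 to 0.32. Of 20 tested erythroid genes 5 fell, where 2.54% of all genes tested fell, and 0 rose with edgeR (median log2 fold change -0.53). At an unadjusted p under 0.05 (edgeR), 12 of the 20 were lower, where 8.81% of all genes were. In 11 of the 20 every knockout pool lay below every control pool, as in 10.6% of all genes tested. At an unadjusted p under 0.05, and likewise by DESeq2 and by limma-voom, 0 were higher. The 5 that passed with edgeR included slc4a1 (ENSDARG00000012881), the anion exchanger of the red cell membrane, and klf1, an erythroid transcription factor. The others were the globin genes hbae1.1, hbae1.2 and hbae1.3. The other slc4a1 gene, ENSDARG00000024560, stood at a log2 difference of 0.18 with overlapping groups and did not pass (edgeR adjusted p = 0.712). The globin genes hbae3 (-0.17, adjusted p = 0.75) and hbae5 (-0.10, adjusted p = 0.951) did not pass either. DESeq2 called 10 erythroid genes lower, where it called 3.11% of all genes lower. Of the 5 genes, only slc4a1 (ENSDARG00000012881) passed in all 12 alternative fits. hbae1.1 missed the threshold under upper-quartile scaling (edgeR adjusted p = 0.0658). Without knockout pool 2 or 3 or control pool 2 or 3, neither hbae1.1 (0.128 to 0.186) nor hbae1.2 (0.066 to 0.133) passed. hbae1.3 did not pass without knockout pool 2 or 3 or control pool 3 (0.0526 to 0.0748). klf1 did not pass without knockout pool 2 or control pool 3 (0.0521 and 0.061). Globin genes resemble each other, and how their reads were divided is uncertain. The edgeR count of 5 became 10 without knockout pool 1, 1 without knockout pool 2, and 2 without knockout pool 3 or control pool 3. Over all genes those fits called 487, 394, 411 and 360 lower, in that order.

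The summed level of the 15 erythroid genes other than globins was 438, 373 and 404 CPM in knockout pools 1, 2 and 3, against 636, 512 and 588 CPM in control pools 1, 2 and 3. In that sum sptb, which did not pass, had a mean of 88.1 CPM in the knockout and 99.3 CPM in the control pools. slc4a1 (ENSDARG00000012881) had means of 26.5 and 89.3 CPM. Genes with little and with large change thus both weighed much in it. Globins of the list summed to 1226, 646 and 784 CPM in knockout pools 1, 2 and 3, against 1187, 1215 and 1372 CPM in control pools 1, 2 and 3. The only beta globin gene of the list found, hbbe3, was at 0 in every pool, so the globin sum covers alpha globin genes only. Knockout pool 1 was thus the highest knockout pool for both sums, as it was for alas2, and its globin sum lay within the control range. None of the defining markers with a row (klf1, slc4a1 and hbae1.1) was at 0 in any pool, and hbbe1.1 was not analysed here. In whole-larva RNA, fewer cells of a type and less RNA per cell cannot be told apart.

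alas2 was also set against these markers. The ratio of alas2 CPM to the summed erythroid genes without globins was 0.136, 0.0746 and 0.103 in knockout pools 1, 2 and 3, against 0.162, 0.125 and 0.144 in control pools 1, 2 and 3, with overlap between the groups. Relative to slc4a1 (ENSDARG00000012881) alone, alas2 was higher in the knockouts, at 1.73, 1.35 and 1.72, against 0.903, 0.897 and 1.03 in the controls, since slc4a1 had the larger decrease (log2 fold change -1.75). That decrease was the largest among the 20 tested erythroid genes, whose median was -0.53. The part of the erythroid markers in the lower enzyme levels was not tested.

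Hepatocyte markers were lower as well: 20 of 28 tested genes fell, where 2.54% of all genes tested fell. By edgeR, DESeq2 or limma-voom 0 rose, where edgeR called 1.47% of all genes higher. At an unadjusted p under 0.05 (edgeR), 22 were lower and 1 was higher, where 8.81% and 6.79% of all genes were. The log2 fold change was positive in 5 of the 28 genes. Its median was -1.07, also with ahsg2 (0 reads in knockouts) at its bound. The summed level of the 28 genes was 11160 to 14720 CPM in the knockout pools, against 18690 to 22610 CPM in the control pools. In that sum apobb.1 alone had a mean of 5570 CPM in the knockout and 5510 CPM in the control pools. apoa1b, which fell, had means of 2698 CPM in the knockout and 5526 CPM in the control pools. Genes with little and with larger change thus both weighed much in the sum. The defining markers fabp10a, tfa, fgb and gc were above 0 in every pool. Their log2 fold changes were -2.41, -2.94, -1.35 and -4.37, beside -1.22 for alas1 and the median of -1.07 for the list. The ratio of alas1 CPM to this sum was 0.00872, 0.0108 and 0.0163 in knockout pools 1, 2 and 3, against 0.0184, 0.0190 and 0.0159 in control pools 1, 2 and 3. Knockout pool 3 lay within the control range, so the ratio overlapped. The part of the hepatocyte markers in the lower alas1 level was not tested.

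**Figure D3:**
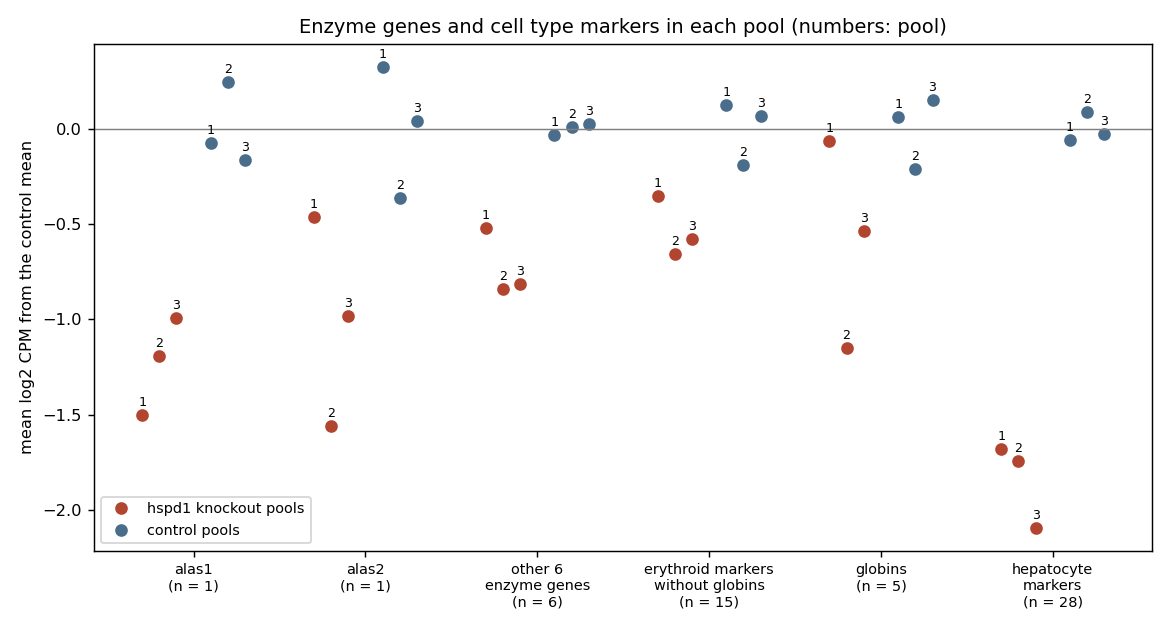
Mean log2 CPM from the control mean (vertical axis) of alas1, alas2, the other 6 enzyme genes and 3 sets of cell type markers in each hspd1 knockout pool (left points of each set) and control pool (right points), with pool numbers. Knockout pool 1 is the lowest knockout pool for alas1 and the highest for alas2, the other enzyme genes, the erythroid genes, the globins and the hepatocyte markers.

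Other genes of heme metabolism changed in both directions, and most did not pass. Of 17 genes listed for heme carriers and mitochondrial transport, 1 rose and 0 fell by edgeR, DESeq2 and limma-voom. Their median log2 fold change was 0.05. At an unadjusted p under 0.05 (edgeR), 1 was lower and 2 were higher, where 8.81% and 6.79% of all genes were. As 1.47% of all genes tested rose, 1 gene in a list of this size is no result about the list. The gene that rose was slc25a38 ENSDARG00000059805, 1 of the 2 genes of that symbol and a carrier of the glycine used in the first step. It had 10.6, 9.41 and 8.67 CPM in knockout pools 1, 2 and 3, against 5.99, 2.13 and 3.44 CPM in control pools 1, 2 and 3 (log2 fold change 1.304, edgeR adjusted p = 0.0255). When knockout pool 1, knockout pool 2 or control pool 3 was left out it did not pass (0.0774, 0.0685 and 0.11). The other slc25a38 gene, ENSDARG00000074533, stood at a log2 difference of -0.09 and overlapped between groups.

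Of 21 genes of heme breakdown, binding and export, 5 fell, where 2.54% of all genes tested fell (median log2 fold change -0.08). With edgeR, DESeq2 or limma-voom 0 rose. At an unadjusted p under 0.05 (edgeR), 6 were lower and 0 were higher, where 8.81% and 6.79% of all genes were. The 5 that fell with edgeR were both hemopexin genes, whose plasma proteins bind free heme, and abcg2a, pgrmc1 and flvcr1. hpxa had 1.14, 1.202 and 1.103 CPM in knockout pools 1, 2 and 3, against 29.9, 7.26 and 20.1 CPM in control pools 1, 2 and 3, and it is also in the hepatocyte list. hpxb fell by 1.202 on the log2 scale (edgeR adjusted p = 0.012). The membrane transporter genes abcg2a and flvcr1 and the heme-binding gene pgrmc1 had log2 fold changes of -0.55, -0.66 and -0.52. Under upper-quartile scaling pgrmc1 missed the threshold (edgeR adjusted p = 0.0642), as it did without knockout pool 2 or 3 or control pool 2 or 3 (0.122 to 0.158). abcg2a did not pass without knockout pool 2 or 3 (0.059 and 0.0655), nor flvcr1 without knockout pool 1 or 2 or control pool 2 or 3 (0.0931 to 0.148). The count of 5 was 2 without knockout pool 2, and 3 without knockout pool 3, control pool 2 or control pool 3. Over all genes those fits called 394, 411, 361 and 360 lower, in that order.

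Among 19 genes of alas control, heme sensing and succinyl-CoA supply, 1 fell and 1 rose (median log2 fold change -0.0015), where 2.54% and 1.47% of all genes tested did, so these counts are no result about the list. suclg2, a subunit of a succinyl-CoA synthetase, fell by 0.52 on the log2 scale (edgeR adjusted p = 0.0405), and it passed in 1 of the 6 fits without a pool, the one without control pool 1, and it missed the threshold under upper-quartile scaling (0.0616). lonp1, the matrix protease that degrades ALAS1 protein in mammals, rose with a log2 fold change of 0.70 (edgeR adjusted p = 0.00365). Of 10 tested genes of heme a synthesis, cytochrome c and copper delivery to cytochrome oxidase, 2 rose, where 1.47% of all genes tested rose. Their median log2 fold change was 0.10. With edgeR, DESeq2 or limma-voom 0 fell. At an unadjusted p under 0.05 (edgeR), 0 were lower and 2 were higher, where 8.81% and 6.79% of all genes were. Those that rose were cox17, a copper chaperone (log2 fold change 0.62), and cycsb, a cytochrome c gene (0.51). cycsb did not pass without knockout pool 2 or 3 or control pool 1, 2 or 3 (edgeR adjusted p 0.0599 to 0.0919). The genes of heme a synthesis, cox10 (edgeR adjusted p = 0.686) and cox15 (0.799), did not pass. Nor did both tested hccs genes of heme attachment (0.691 and 0.973).

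Of 19 genes of iron-sulfur assembly, whose product fech needs, 1 rose and 1 fell (median log2 fold change 0.09), again beside 1.47% and 2.54% of all genes tested. isca1, a late assembly factor, rose by 1.11 on the log2 scale (edgeR adjusted p = 0.00137). fdxr, the reductase that passes electrons to ferredoxins, had 7.05, 9.41 and 7.88 CPM in knockout pools 1, 2 and 3, against 12.3, 20.4 and 16.0 CPM in control pools 1, 2 and 3 (log2 fold change -0.996, edgeR adjusted p = 0.0128).

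**Figure D4:**
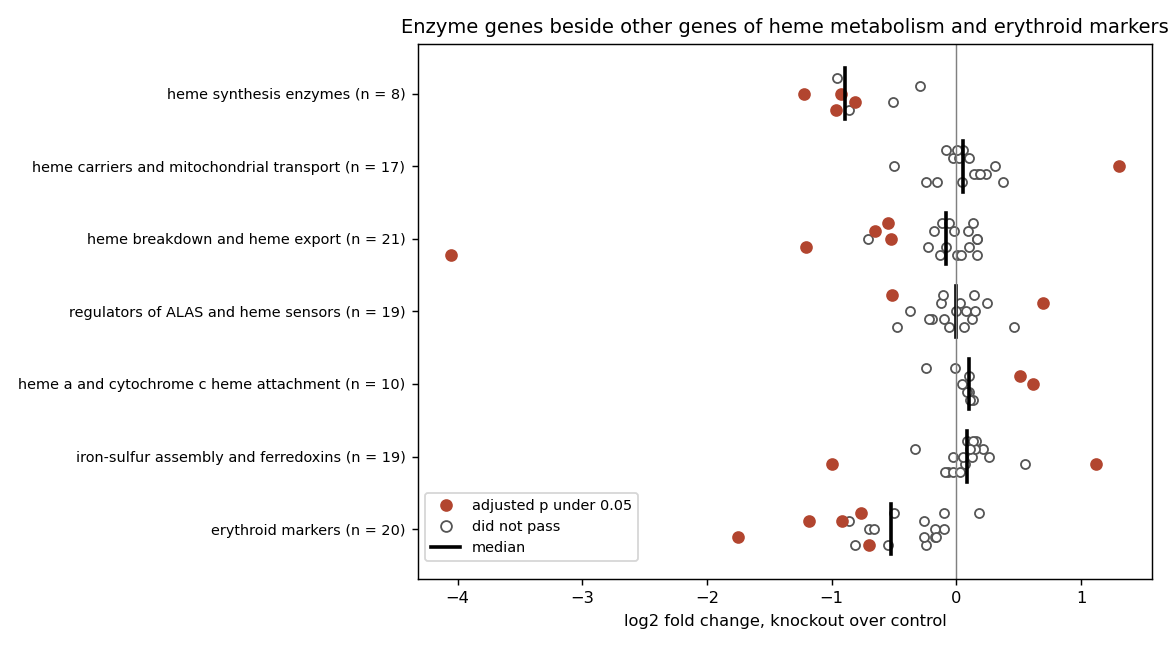
Log2 fold change (knockout over control, horizontal axis) of each tested gene of the enzyme set, of 5 lists of heme metabolism and of the erythroid markers, with filled points for an edgeR adjusted p under 0.05, open points for genes that did not pass, and a bar at each median. The enzyme genes have a median of -0.90 and the erythroid markers of -0.53, while the medians of the other 5 lists lie from -0.08 to 0.10. The hepatocyte markers, with a median of -1.07, are not drawn.

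The genes whose levels went most like those of alas1 over the 6 pools, of 15282 genes with a symbol and a mean of at least 5 CPM, were ptbp2, an RNA-binding splicing regulator (Pearson r 0.9986 on log2 CPM), rcor2 (0.9962) and hnrnpa1l2 (0.9955). Those most like alas2 were epb41b (0.9949), which encodes a membrane skeleton protein of red cells, cox4i1l (0.993) and rasl11b (0.9887). They are the highest of many over few pools that share the split by genotype, and are a description only. epb41b had 25.6, 14.5 and 18.1 CPM in knockout pools 1, 2 and 3, against 40.1, 26.5 and 35.5 CPM in control pools 1, 2 and 3, with pool 1 highest and pool 2 lowest in each genotype, as for alas2.

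**Figure D5:**
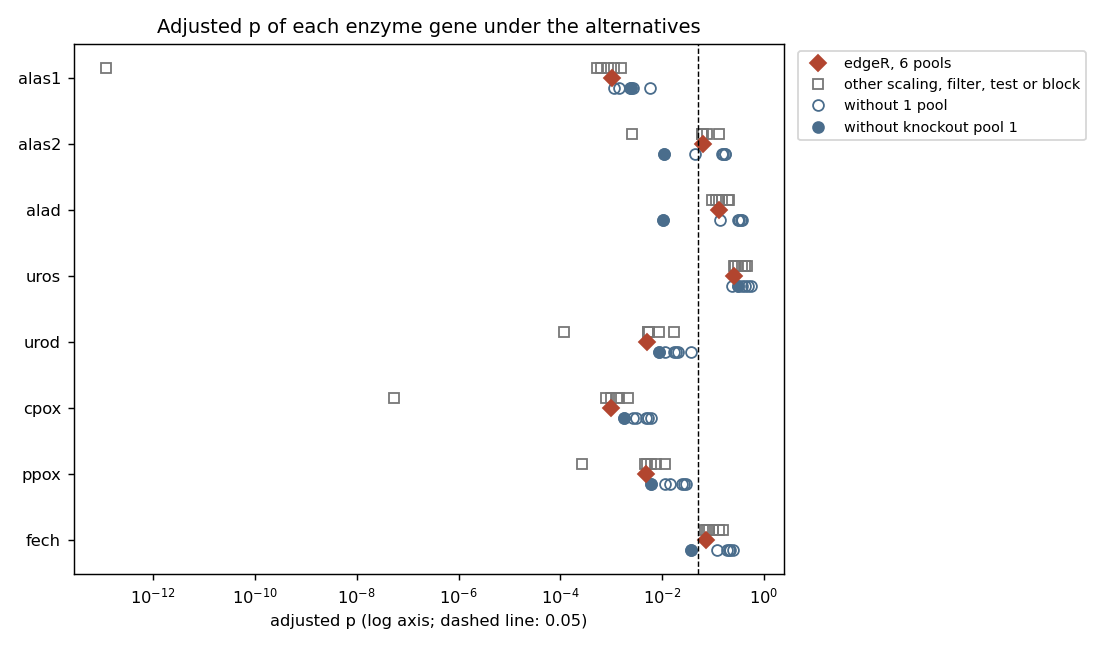
Adjusted p (horizontal log axis, dashed line at 0.05) of each enzyme gene with edgeR on 6 pools (diamonds), with other scaling, filter, test or block (squares), and without 1 pool (circles, filled for knockout pool 1). alas1, cpox, ppox and urod stay below 0.05 in all 12 alternatives, while alas2, alad and fech cross it in some.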

How the data were processed

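RNA from 6 pools of larvae was sequenced as non-stranded, poly(A)-selected, paired-end libraries, per the labels' protocols. The authors deposited estimated counts for each gene, already whole numbers. FastQC, Trim Galore, Salmon and DESeq2 with build GRCz11 are named in the submitters' processing notes, with neither versions nor roles. Symbols came from a gene table (23598 of 25859 genes). Transcript lengths and sequences were not used here. Without strand information, overlapping or antisense genes cannot be told apart.

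Genes were kept by filterByExpr (21602 genes) and TMM-scaled. Genotypes were compared with edgeR 4.0.16's quasi-likelihood test (R 4.3.3), fitting genotype alone. SE was taken as the size of the log2 fold change divided by the root of its F statistic. log2 CPM used a prior count of 2. The test was first tested on simulated data. Pools of 1 genotype differed beyond sampling noise (chi-square per degree of freedom 7.22 to 20.6), and each counted as 1 sample. Whether same-numbered pools share a mating set is not stated. The p-values set the genotype difference against the spread between these pools, taken as independent. Depths of 18517874 to 20331675 counts limit precision for genes with few reads.

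The members and lists were chosen with earlier results of these data known. All members described are named, with up to 5 passing genes per list by smallest p, and the 3 genes most like alas1 and alas2. The second slc25a38 and slc4a1 genes, hbae3, hbae5, apobb.1, apoa1b, cox10, cox15 and hccs were named after their values were seen. Not every enzyme of the pathway is reported here. Alternatives were DESeq2 size factors, upper-quartile scaling, no low-count filter, DESeq2 1.42.0, limma-voom (limma 3.58.1), a block on replicate number, and leaving out each pool.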

Additional observations from a re-analysis of the deposited data

How the results depend on the processing

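Every enzyme gene kept a negative log2 fold change under all 12 alternatives. In all 8 genes every knockout pool lay below every control pool, so leaving out a pool could hardly change that sign. alas1, cpox, ppox and urod passed in all 12, and uros in 0. Leaving out each pool in turn gave 4 to 7 of the 8 enzyme genes called lower and 0 higher. Over all genes it gave 360 to 635 lower and 189 to 346 higher. For the lists it gave 0 to 1 higher for mitochondrial carriers, 2 to 5 lower for heme breakdown and export, 0 to 1 lower and 1 to 2 higher for alas control and heme sensing, 1 to 2 higher for heme a and cytochrome c, and 1 to 10 lower for erythroid markers. The number of genes lower in the list of alas control was 0 with upper-quartile scaling and 2 with DESeq2. DESeq2 also called 10 erythroid markers lower, where it called 3.11% of all genes lower. The causes of these shifts were not tested. Deviations of same-numbered pools from their group means correlated at -0.199, 0.1 and -0.0742, across genes. With 3 pools in each group, these correlations cannot decide whether same-numbered pools were paired. With a replicate block alas2 passed (adjusted p = 0.00258), the 8 enzyme genes gave 5 lower, heme breakdown and export gave 3 lower, alas control gave 0 lower, and heme a and cytochrome c gave 1 higher. Genes that lost their call with it were hbae1.1 (0.0784), abcg2a (0.0616), pgrmc1 (0.0807), cycsb (0.0706) and suclg2 (0.0762). Without the block and with the other scalings, filter and tests alas2 did not pass (DESeq2 adjusted p = 0.133, limma-voom 0.0597). Depth limits fech most, with 21 to 49 reads per pool.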

Other observations

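Some heme genes often asked about showed no change past the test, and they were picked after their values were seen. hmox1, the inducible heme oxygenase that opens the heme ring, had 10.4, 10.1 and 9.56 CPM in knockout pools 1, 2 and 3, against 7.46, 12.2 and 13.4 CPM in control pools 1, 2 and 3, and the knockout values lay inside the control range. slc25a37, the iron importer mitoferrin of red cell precursors, had 1.97, 2.19 and 2.26 CPM in knockout pools 1, 2 and 3, against 2.79, 2.46 and 3.86 CPM in control pools 1, 2 and 3. Its groups did not overlap, and its log2 difference of -0.50 did not pass (edgeR adjusted p = 0.294).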
